A study of Mus musculus with 6 samples.

Results

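Costimulatory and checkpoint ligands and receptors were compared between 3 cell fractions sorted from mouse sublingual mucosa. The genes were Cd80, Cd86, Icosl, Cd274, Pdcd1lg2, Cd40, Tnfsf4, Tnfsf9, Havcr2 and Lgals9, and their probes were found by the gene name that the array files give. These 10 genes had 18 of the 56605 probes, and 8 of the 10 had a probe bright enough to test, among 20817 genes tested in all. Fr1 held CD11c+CD206- cells. Fr2 held CD11c-negative, CD206-negative cells that carried the macrophage antigen encoded by Adgre1, and Fr3 held cells with that antigen and high CD206. CD11c is the integrin encoded by Itgax that marks dendritic cells and some macrophages, and CD206 is the mannose receptor encoded by Mrc1. All 3 fractions came from BALB/c mice, an inbred strain, whose sublingual mucosa was painted 2 times with FITC, a fluorescent dye that sensitises by contact. Before sorting, tissue of the dorsal tongue spent 30 min in collagenase and DNase, and no unpainted mice were among the samples analysed here. Each fraction had 2 arrays, which the series design attributes to independent experiments. How many mice went into a sort is not stated by the labels.

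An antigen-presenting cell gives a T cell antigen together with further signals that set the outcome. CD80 and CD86 bind CD28, which costimulates the T cell, and CTLA-4, which restrains it. ICOSL binds ICOS, PD-L1 (Cd274) and PD-L2 (Pdcd1lg2) bind the inhibitory receptor PD-1, and OX40L (Tnfsf4) and 4-1BBL (Tnfsf9) are ligands of the TNF family. CD40 works the other way, since it receives the signal of CD40 ligand from the T cell and licenses the presenting cell. TIM-3 (Havcr2) is an inhibitory receptor of T cells that dendritic cells and other myeloid cells also carry, and galectin-9 (Lgals9) is among its ligands. At mucosal surfaces these molecules take part in the balance between tolerance and immunity.

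Levels are log2 of the processed spot signal minus the 75th percentile of that array, so a level of 0 is the signal that 75% of the probes do not exceed. A probe reads its own gene in its own way, so levels were compared between fractions and not between genes. The probes whose readings matter most below are printed 5′ to 3′ with T in capitals, because the gap between replicate arrays moved with the number of T bases in a probe. Whole probes of 60 bases are given for the Cd80 and main Cd86 probes, and the first 30 bases for the rest. Coordinates were taken from the array files (mouse build mm9) and cover the whole probe. Whether a probe lies in a coding exon or a UTR was not determined, since no annotation of that build was used here.
Havcr2 probe A_51_P109508 (chr11:46294650-46294709, plus strand): cTaacaaaaTccaTTagagaTaacagcTcT
Cd80 probe A_52_P244005 (chr16:38474174-38474233, plus strand): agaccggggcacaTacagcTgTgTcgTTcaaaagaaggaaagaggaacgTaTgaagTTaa
Cd80 probe A_66_P130432 (chr16:38479343-38479402, plus strand): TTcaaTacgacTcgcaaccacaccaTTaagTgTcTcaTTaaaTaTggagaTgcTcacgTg
Cd86 probe A_51_P174723 (chr16:36615381-36615440, minus strand): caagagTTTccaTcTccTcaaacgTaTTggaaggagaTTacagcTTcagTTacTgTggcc
Cd86 probe A_55_P2715366 (chr16:36660860-36660919, minus strand): TggaTgggTcaaacaTaacTagaaTcgTag
Cd274 probe A_51_P248666 (chr19:29462363-29462422, plus strand): TTgaTgagTcTcaTgTTaaTgTcTTgTTTg
The Havcr2 probe is shown for the widest difference among the 8 genes tested, and the others because probes of the same gene, or replicate arrays of the same probe, gave unlike readings. T made up 13 of the 60 bases of the Havcr2 probe and 24 of those of the Cd274 probe.

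Between 44.6% and 52.4% of the spots on an array were well above background and none was saturated. Across the genes tested, Pearson's r between replicate arrays was 0.883 for Fr1, 0.898 for Fr2 and 0.796 for Fr3, a correlation over genes, which are not independent. The 2 Fr3 arrays differed by more than 2 log2 units at 16.05% of the genes, against 8.80% in Fr1 and 7.42% in Fr2. The Fr1 and Fr3 arrays shared a slide and both Fr2 arrays were on another, so a difference between Fr2 and either other fraction cannot be told apart from a difference between slides. Fr1 minus Fr3 is a comparison within a slide.

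The sort markers followed the sort in part. Mrc1 had levels of −3.75 and −3.19 in Fr1, where neither array was well above background, 0.97 and 0.65 in Fr2, and 4.10 and 3.01 in Fr3. Adgre1 had levels of 4.83 and 4.70 in Fr1, 6.27 and 6.29 in Fr2, and 5.78 and 5.66 in Fr3. Itgax had levels of 3.05 and 2.66 in Fr1, 3.10 and 1.53 in Fr2, and 0.52 and 1.29 in Fr3. The Fr2 arrays, sorted as CD11c-negative, therefore overlapped the Fr1 arrays for Itgax, and every fraction gave an Adgre1 signal. The sort read surface protein, whereas the arrays read RNA. Of the 2 other kept Itgax probes, 1 had the opposite sign in Fr1 minus Fr2. Mrc1 separated all 3 fractions without overlap.

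Havcr2, the gene of TIM-3, gave the widest difference among the 8 genes tested. Its level was 3.40 and 3.02 in Fr1 and 3.77 and 2.65 in Fr2, against −2.33 and −1.20 in Fr3. Every Fr1 and Fr2 array lay above both Fr3 arrays, and the first Fr3 array was not well above background. Fr1 minus Fr3 was 4.97 ± 0.68 log2 units (SE, n = 2 arrays each), with a 95% interval of 3.35 to 6.59. No ratio is given, since Fr3 was measured above background on 1 of its 2 arrays. The unadjusted p was 0.00019 and the adjusted p over all genes was 0.145 (limma, Benjamini-Hochberg), so the difference did not pass the threshold of 0.05. Fr2 minus Fr3 was 4.97 ± 0.68 (SE, n = 2 each) with an unadjusted p of 0.00019 and an adjusted p of 0.114, which also missed the threshold. Fr1 and Fr2 differed by 0.00 ± 0.68, with a 95% interval of −1.62 to 1.62. In sorted bulk samples such as these, fewer cells that carry a transcript and less transcript per cell cannot be told apart.

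Whether Havcr2 passed the threshold depended on the arrays and probes in the fit. Without the first Fr3 array, Fr1 minus Fr3 was 4.41 with an adjusted p of 0.0214 and Fr2 minus Fr3 was 4.41 with an adjusted p of 0.0295, the lone remaining Fr3 array being taken to vary like the other fractions. With that array left out, 1395 genes were called in Fr1 minus Fr3 and 933 in Fr2 minus Fr3, against 1 in each comparison with all arrays. With all arrays but without probes of over 30% T, Havcr2 passed in Fr2 minus Fr3 (adjusted p = 0.0345) and not in Fr1 minus Fr3 (adjusted p = 0.0536). Background correction by the normexp method gave 2.26 for Fr1 minus Fr3 and 2.06 for Fr2 minus Fr3.

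**Figure D1:**
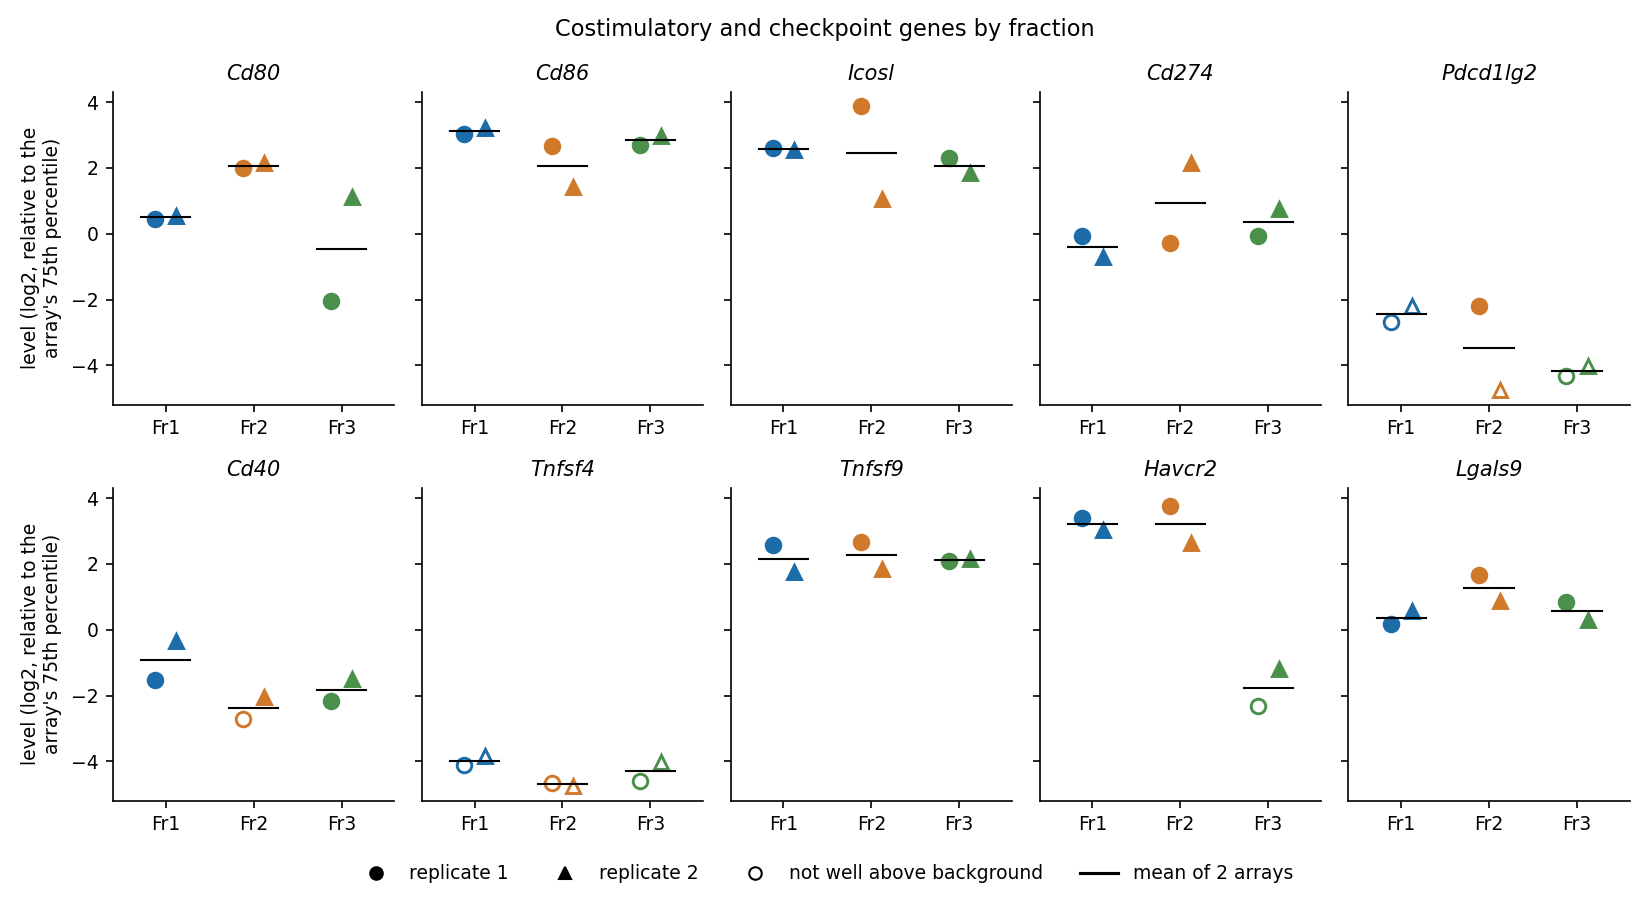
Level of each of the 10 genes by fraction, as log2 signal relative to the 75th percentile of the array, with 2 arrays per fraction, a bar at their mean, and open symbols where the probe was not well above background. Havcr2 lies between 2.65 and 3.77 on the Fr1 and Fr2 arrays and at −2.33 and −1.20 on the Fr3 arrays, while Tnfsf4 is not well above background on any array; levels of different genes come from different probes and are not comparable.

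Some eosinophil markers ran as Havcr2 did and others did not. Of 7 eosinophil genes, 6 and 7 were well above background on the arrays of Fr1, 7 and 7 on those of Fr2, and 4 and 6 on those of Fr3. Their mean level was 1.19 and 0.98 in Fr1, 3.13 and 3.85 in Fr2, and −0.98 and −0.21 in Fr3. The list average was highest in Fr2 and lowest in Fr3. Siglecf, a sialic acid receptor of eosinophils and some macrophages, had levels of 2.98 and 3.45 in Fr1, 5.31 and 6.24 in Fr2, and −0.27 and −0.32 in Fr3. Prg2, the major basic protein of eosinophil granules, had levels of 0.84 and 2.25 in Fr1 and 3.43 and 5.36 in Fr2, while neither Fr3 array was well above background. Fr2 was the highest fraction for Siglecf and Prg2. Ccr3, another gene of the list, had levels of 1.43 and 2.11 in Fr1, 1.82 and 3.31 in Fr2, and −3.70 and −1.62 in Fr3. Its first Fr3 array was not well above background. For Ccr3, as for Havcr2, the Fr1 and Fr2 arrays overlapped and both Fr3 arrays lay below them. Epx also overlapped between Fr1 and Fr2 and had its lowest mean in Fr3, but its Fr3 arrays overlapped those of Fr1. Its first Fr1 array and first Fr3 array were not well above background. Ear2, an eosinophil ribonuclease, had levels of 1.35 and −0.97 in Fr1, 3.61 and 3.55 in Fr2, and 1.23 and 1.43 in Fr3. Ear1 and Ear6, close relatives of Ear2, also had a lower mean in Fr1 than in Fr3. The part of these cells in the Havcr2 reading was not tested.

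Dendritic cell, macrophage and lymphocyte genes also differed in level between the fractions. The mean level of the 9 dendritic cell genes with a bright enough probe was 0.72 and 0.40 in Fr1, 0.23 and 0.26 in Fr2, and −0.65 and −0.80 in Fr3. The mean level of 10 macrophage genes was 0.76 and 0.84 in Fr1, 2.58 and 1.19 in Fr2, and 4.11 and 3.65 in Fr3. The 7 T and NK cell genes averaged 1.08 and 1.48 in Fr1, 0.00 and 0.58 in Fr2, and −0.17 and −0.37 in Fr3. The macrophage average was highest in Fr3 and the lymphocyte average highest in Fr1, although the single genes of the lists did not all run that way. The macrophage list held the sort markers Mrc1 and Adgre1, and the dendritic cell list held Itgax. Those averages therefore followed the sort in part by construction. Cd209a of the dendritic cell list had its lowest levels in Fr1, at 3.40 and 2.61. C1qb of the macrophage list overlapped between Fr1 and Fr3. Gzma, a granzyme of cytotoxic lymphocytes, had levels of 3.48 and 2.97 in Fr1, −0.60 and 0.14 in Fr2, and −0.94 and −0.59 in Fr3. Cd4, a coreceptor of helper T cells that some myeloid cells carry, had levels of 2.18 and 2.71 in Fr1, 2.24 and 3.35 in Fr2, and 2.68 and 3.72 in Fr3. Its arrays overlapped between all 3 fractions, whereas those of Gzma put Fr1 above the rest. Gzmb, another granzyme, also had its highest arrays in Fr1, and its probe was kept through Fr1 alone. The Fr1 arrays did not stand above the rest for Cd3e, Lck, Ncr1 or Klrb1c. Mean levels in Fr1, Fr2 and Fr3 were 0.93, 0.88 and 0.63 for Cd3e and 0.79, 1.23 and 0.64 for Lck. The median of the list in Fr1 minus Fr2 was 0.05. The neutrophil list of 8 genes averaged 0.49 and 0.17 in Fr1, 3.96 and 4.03 in Fr2, and −0.04 and −0.35 in Fr3. The part of lymphocytes and granulocytes in the levels of the 10 genes was not tested.

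**Figure D2:**
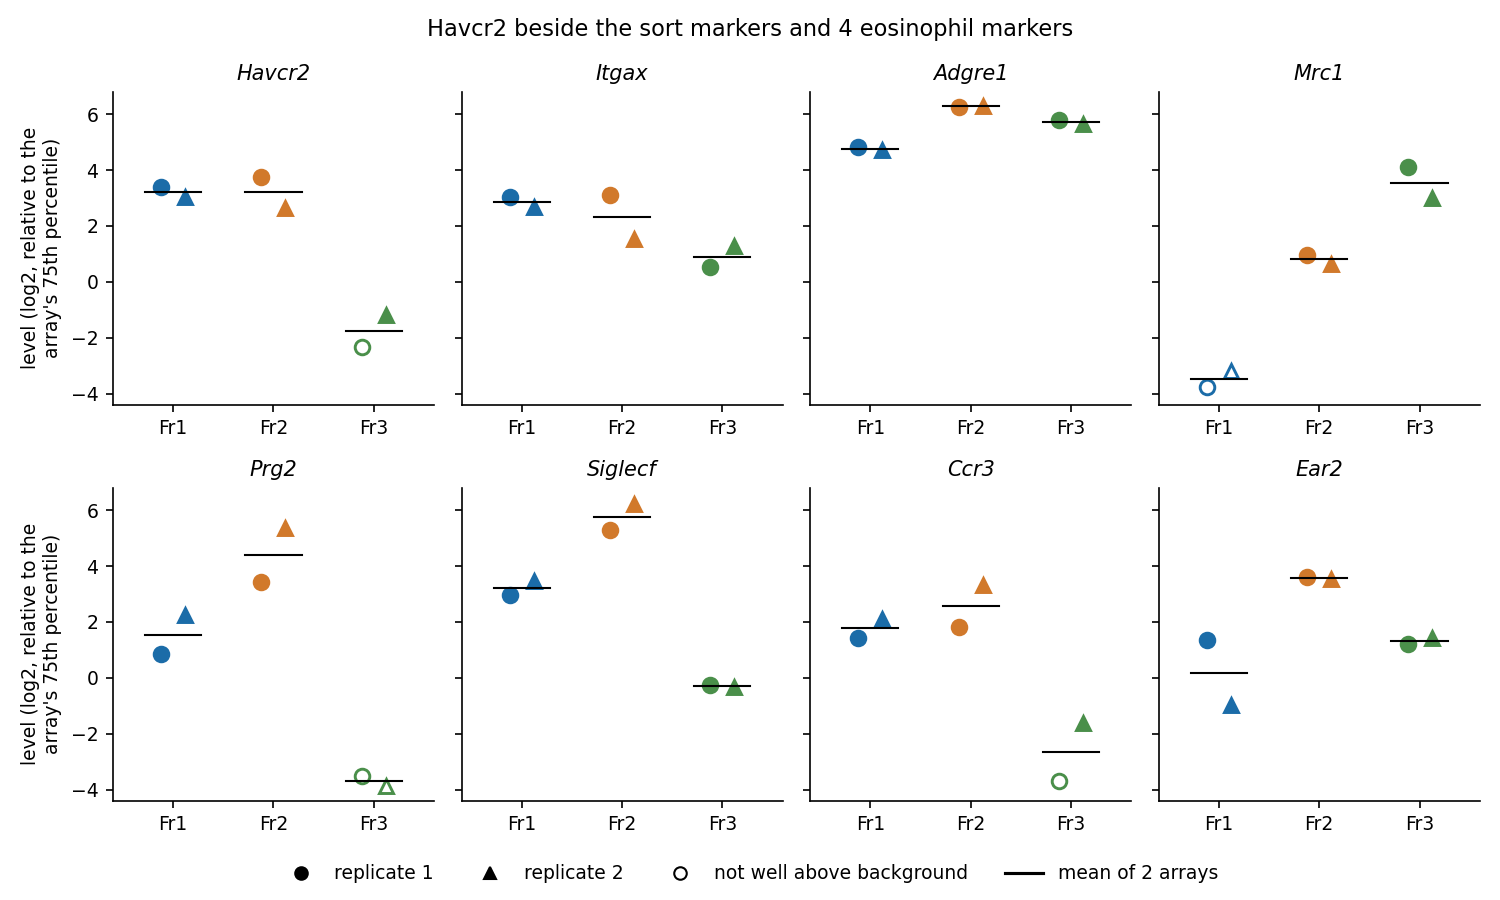
Level of Havcr2, the 3 sort markers and 4 eosinophil markers by fraction, as log2 signal relative to the 75th percentile of the array, with 2 arrays per fraction, a bar at their mean, and open symbols where the probe was not well above background. Siglecf, Prg2 and Ccr3 are lowest in Fr3, as Havcr2 is, Ear2 has its lowest mean in Fr1, with levels of 1.35 and −0.97, and Mrc1 is highest in Fr3 with levels of 4.10 and 3.01.

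Lgals9, the gene of galectin-9, was read on all 6 arrays by a probe with 14 T bases. Its level was 0.16 and 0.56 in Fr1, 1.67 and 0.89 in Fr2, and 0.83 and 0.30 in Fr3. Both Fr2 arrays lay above all the others, and the Fr1 and Fr3 arrays overlapped. Fr1 minus Fr2 was −0.92 (adjusted p = 0.640) and Fr2 minus Fr3 was 0.71 (adjusted p = 0.672), and Fr1 minus Fr3 was −0.20 with a 95% interval that spans 0. Ceacam1, which encodes another ligand proposed for TIM-3, had levels of −1.23 and −0.34 in Fr1, 0.63 and 1.49 in Fr2, and 1.43 and 0.67 in Fr3. Its Fr1 arrays lay below the other 4, and its other kept probe had the opposite sign in Fr1 minus Fr3.

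Cd80 was read by 4 probes that did not give the same picture. The brightest had levels of 0.46 and 0.54 in Fr1, 1.99 and 2.14 in Fr2, and −2.05 and 1.11 in Fr3. The 2 Fr1 arrays and the 2 Fr2 arrays were each close together, while the Fr3 arrays were 3.16 apart and lay on both sides of the Fr1 arrays. Fr2 minus Fr3 was 2.53 ± 1.00 (SE, n = 2 each), with an unadjusted p of 0.041 and an adjusted p of 0.543, and Fr1 minus Fr2 was −1.57 with an adjusted p of 0.643. Fr2 minus Fr3 was 0.95 without the first Fr3 array, 4.11 without the second and 0.90 under normexp. Fr1 minus Fr3 was 0.96, and it turned to −0.62 without the first Fr3 array. Both Fr2 arrays lay above all the others for this probe.

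The second Cd80 probe printed above had levels of −1.56 and −0.52 in Fr1, 0.91 and −0.22 in Fr2, and −0.62 and −0.97 in Fr3. Its Fr2 arrays were again the highest, and its Fr3 arrays were close together. Of the other probes, A_51_P418295 had levels of 0.26 and 0.97 in Fr1, 0.68 and 1.93 in Fr2, and −2.08 and −0.67 in Fr3. On that probe Fr2 minus Fr3 was 2.68, with an unadjusted p of 0.010 and an adjusted p of 0.314 over all probes. Probe A_55_P2001218 had levels of 0.28 and 0.65 in Fr1, 0.11 and 1.26 in Fr2, and −0.88 and 1.68 in Fr3, with overlap between all 3 fractions. Fr2 minus Fr3 was positive on all 4 Cd80 probes and passed an unadjusted p of 0.05 on 2 of them, against 9.67% of all probes tested singly. The 4 probes read the same gene on the same arrays, so they are not independent. The Fr2 and Fr3 arrays were also on different slides.

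Cd86 was well above background on all 6 arrays by its main probe and did not differ between fractions at the threshold. Its level was 3.03 and 3.23 in Fr1, 2.68 and 1.41 in Fr2, and 2.70 and 2.98 in Fr3. Fr1 minus Fr2 was 1.08 ± 0.63 (SE, n = 2 each, adjusted p = 0.612), Fr1 minus Fr3 was 0.29 (adjusted p = 0.940) and Fr2 minus Fr3 was −0.79 (adjusted p = 0.660). Both Fr1 arrays lay above the other 4, and the second Fr2 array was the lowest. Fr1 minus Fr2 was 0.45 without that array and 1.72 without the first Fr2 array. The 95% interval of Fr1 minus Fr3 ran from −1.20 to 1.78.

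A Cd86 probe that the files assign to another transcript than the other 3 probes gave a reading above background in Fr1 and in neither other fraction. Probe A_55_P2715366 had levels of −1.24 and 0.56 in Fr1, −3.37 and −4.79 in Fr2, and −4.71 and −2.37 in Fr3. Against the lowest signal well above background, Fr1 was at least 3.79-fold higher than Fr3 (unadjusted p = 0.018, adjusted p = 0.426 over all probes). Fr1 was at least 4.86-fold higher than Fr2 by the same measure (unadjusted p = 0.00895, adjusted p = 0.362). Neither passed the threshold. The probe was kept through its Fr1 arrays alone, so a reading highest in Fr1 was favoured by the filter and is no support for a difference. Of the remaining Cd86 probes, A_52_P145861 ranged from −2.65 to −0.37 and A_55_P1971951 from −0.87 to 0.34 over the 6 arrays, with no adjusted p under 0.05.

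**Figure D3:**
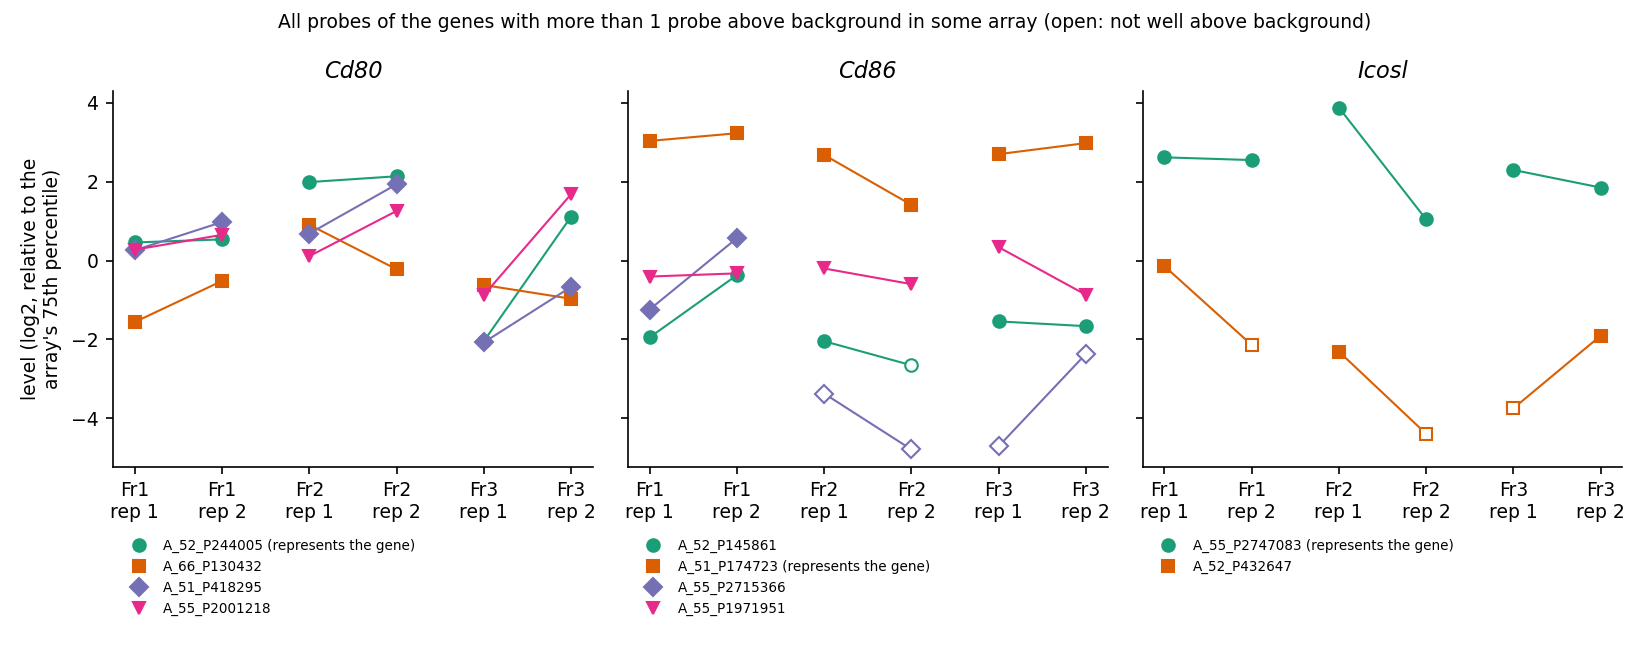
Level of every probe of Cd80, Cd86 and Icosl on each of the 6 arrays, as log2 signal relative to the 75th percentile of the array, with a line joining the 2 replicates of a fraction and open symbols where a probe was not well above background. The Cd86 probe A_55_P2715366 is filled only on the Fr1 arrays, and the Cd80 probe A_52_P244005 sits at −2.05 and 1.11 on the Fr3 arrays.

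Icosl, the ligand of ICOS, had levels of 2.62 and 2.55 in Fr1, 3.88 and 1.04 in Fr2, and 2.30 and 1.85 in Fr3. The highest and the lowest of the 6 values were both from Fr2, where the second array minus the first was −2.83. Fr1 minus Fr3 was 0.51 with an adjusted p of 0.928, and the other 2 differences changed sign with the Fr2 array that was left out. Its other probe, A_52_P432647, was well above background on 3 of 6 arrays, 1 of each fraction, and was not tested.

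Cd274, the gene of PD-L1, had levels of −0.07 and −0.72 in Fr1, −0.29 and 2.15 in Fr2, and −0.06 and 0.75 in Fr3. The second Fr2 array stood 2.44 above the first, and both Fr3 arrays lay above both Fr1 arrays by a small margin. Fr1 minus Fr2 was −1.32 ± 0.89 (SE, n = 2 each, adjusted p = 0.657), and it was −0.10 when the second Fr2 array was left out. Fr1 minus Fr3 was −0.74 with an adjusted p of 0.855, and −0.33 without the second Fr3 array. Pdcd1lg2, the gene of PD-L2, was well above background on 1 of 6 arrays, the first Fr2 array, at −2.20. Its other levels lay between −4.76 and −2.19, so no comparison was made.

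Cd40 was dim in every fraction. Its level was −1.52 and −0.33 in Fr1, −2.71 and −2.06 in Fr2, and −2.17 and −1.49 in Fr3, and the first Fr2 array was not well above background. Fr1 minus Fr2 was 1.46 ± 0.66 (SE, n = 2 each), with an unadjusted p of 0.0634 and an adjusted p of 0.531. It was 0.87 without the second Fr1 array and 0.21 under normexp. Both Fr1 arrays lay above both Fr2 arrays and overlapped the Fr3 arrays.

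Of the TNF family ligands, Tnfsf9 was read on all arrays and Tnfsf4 on none. Tnfsf9 had levels of 2.56 and 1.74 in Fr1, 2.68 and 1.85 in Fr2, and 2.08 and 2.16 in Fr3. All 3 fractions overlapped, and Fr1 minus Fr3 was 0.03 ± 0.60 (SE, n = 2 each) with a 95% interval of −1.41 to 1.47. The 2 probes of Tnfsf4 were well above background on 0 of 6 arrays, with levels between −4.78 and −3.85.

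Over the 8 genes tested, 0 passed an adjusted p of 0.05 in any of the 3 comparisons, where 0.0048% of all genes passed in Fr1 minus Fr3, 0% in Fr1 minus Fr2 and 0.0048% in Fr2 minus Fr3 (limma). The gene behind each of these calls was Gm2042, a predicted gene, named after its values were seen. At an unadjusted p under 0.05 the count was 1 of 8 in Fr1 minus Fr3 (Havcr2), against 8.16% of all genes. It was 0 of 8 in Fr1 minus Fr2, against 9.77%, and 2 of 8 in Fr2 minus Fr3 (Cd80 and Havcr2), against 8.91%.

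The arrays of Fr1 and Fr3 did not overlap for 4 of the 8 genes, against 35.6% of all genes, and those of Fr1 and Fr2 for 4 of 8, against 45%. The arrays of Fr2 and Fr3 did not overlap for 4 of 8, against 42% of all genes. Read against those shares, the counts mark nothing particular to the 8 genes. The median difference of the 8 genes was 0.40 in Fr1 minus Fr3, −0.06 in Fr1 minus Fr2 and 0.49 in Fr2 minus Fr3, and that of all genes was −0.05, 0.04 and −0.08 in the same order. The comparisons share arrays, so their values are not independent.

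**Figure D4:**
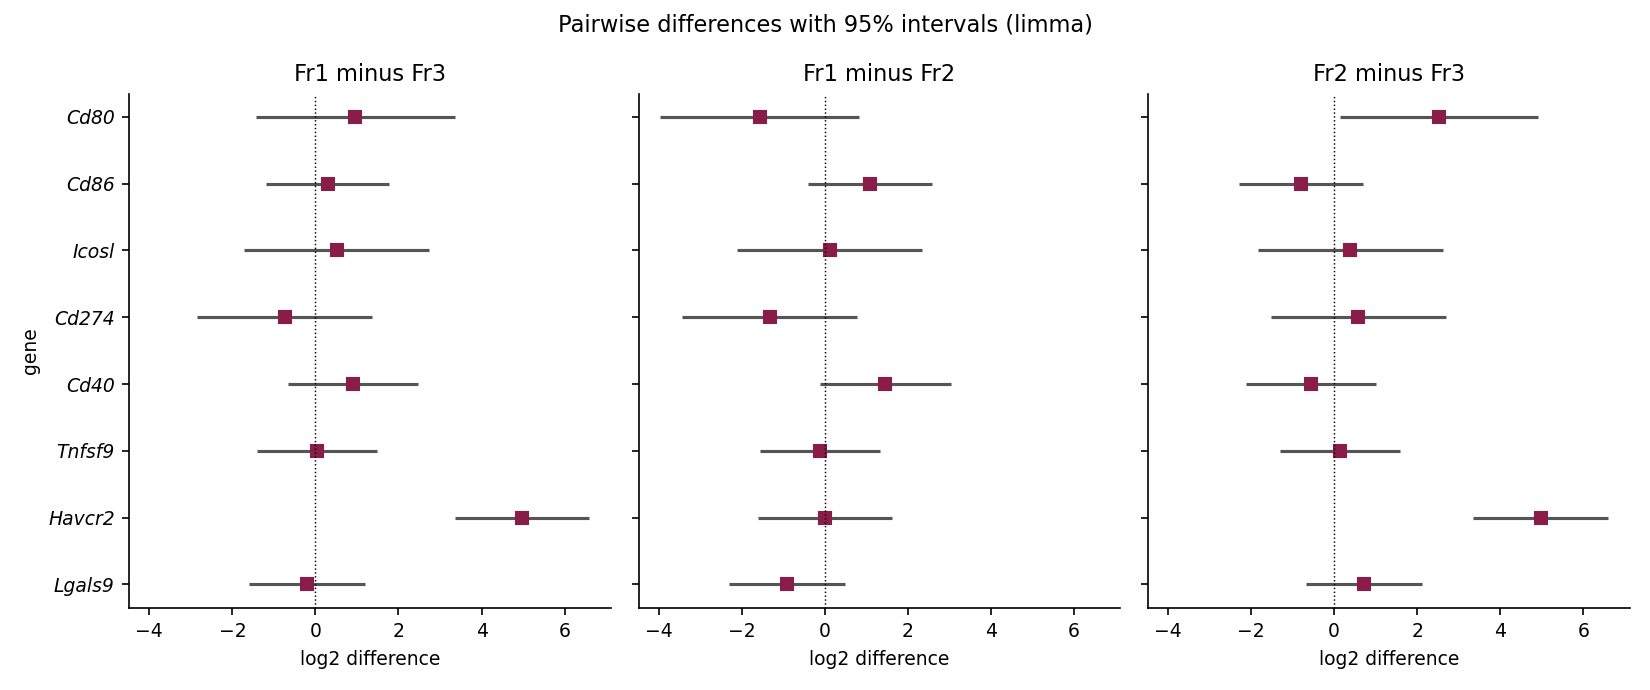
Log2 difference between fractions for the 8 genes tested, with 95% intervals from limma, in the comparisons Fr1 minus Fr3, Fr1 minus Fr2 and Fr2 minus Fr3. The Havcr2 intervals of 3.35 to 6.59 (Fr1 minus Fr3) and 3.35 to 6.59 (Fr2 minus Fr3) lie clear of 0, as does that of Cd80 in Fr2 minus Fr3, and every other interval spans 0.

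Further costimulatory and checkpoint ligands were described from a list of 22 genes, of which 21 were on the array by name and 16 were bright enough to test. None was called by limma. At an unadjusted p under 0.05 the list held 1 gene higher and 1 lower in Fr1 minus Fr3, where 2.8% of all genes were higher and 5.36% lower. In Fr1 minus Fr2 it held 0 higher and 2 lower, where 3.35% of all genes were higher and 6.42% lower. In Fr2 minus Fr3 it held 1 higher and 2 lower, where 4.84% of all genes were higher and 4.06% lower. The median difference of the list was −0.57 in Fr1 minus Fr3, −0.49 in Fr1 minus Fr2 and 0.02 in Fr2 minus Fr3. Nectin3, an adhesion protein of the nectin family, had levels of −0.46 and −0.93 in Fr1 and −0.66 and 0.31 in Fr2, while neither Fr3 array was well above background. Fr1 was at least 2.96-fold and Fr2 at least 4.24-fold above Fr3 (adjusted p = 0.346 and 0.239). Icam1, the ligand of LFA-1 at the synapse, had levels of 1.18 and 2.31 in Fr1, 0.82 and −0.97 in Fr2, and 1.55 and 3.72 in Fr3. Timd4, a phosphatidylserine receptor of resident macrophages, had levels of −0.35 and −0.86 in Fr1, −1.81 and −2.67 in Fr2, and 1.18 and −0.95 in Fr3. For Icam1 both Fr2 arrays lay below the other 4, and the same held for Timd4. Vtcn1, Cd70, Tnfsf18 and Btn2a2 were well above background on no array.

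Receptors on the T cell side were also described as a list. Of 14 counter-receptors, 11 were bright enough to test and 0 were called. At an unadjusted p under 0.05 (limma), 2 of 11 were higher in Fr1 minus Fr3, against 2.8% of all genes. In Fr1 minus Fr2, 3 of 11 were higher, against 3.35%, and in Fr2 minus Fr3, 1 of 11 was lower, against 4.06%. The median difference of the counter-receptors was 0.90 in Fr1 minus Fr3, 0.58 in Fr1 minus Fr2 and 0.11 in Fr2 minus Fr3. Icos had levels of 1.06 and 0.39 in Fr1, −1.88 and −1.47 in Fr2, and −0.71 and −2.23 in Fr3. Btla, an inhibitory receptor of lymphocytes and dendritic cells, had levels of −0.50 and −1.15 in Fr1 and −2.13 and −2.75 in Fr2, and Fr1 was at least 2.70-fold above Fr3. The Fr1 arrays stood above the others for Icos and Btla, and no adjusted p passed. The Btla probe was kept through its Fr1 arrays alone, so the filter favoured a reading highest in Fr1. Cd28, Ctla4 and Lag3 overlapped between all fractions. Cd40lg had levels of 1.13 and 0.18 in Fr1, −1.18 and −0.22 in Fr2, and 0.37 and −2.56 in Fr3. Cd96 had levels of −2.27 and −1.29 in Fr1, −3.77 and −2.89 in Fr2, and −1.71 and −1.57 in Fr3. Its first Fr1 array and both Fr2 arrays were not well above background. The Cd96 probe was kept through its Fr3 arrays alone, so the filter favoured a reading highest in Fr3. Cd96 was the gene counted lower in Fr2 minus Fr3 and was among those counted higher in Fr1 minus Fr2. Btla was among those counted higher in Fr1, so these counts rest in part on the filter. Pdcd1, the gene of PD-1, and Cd27 and Tigit were well above background on no array.

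Of the genes downstream of CD40 and NF-kB, 17 of 18 were on the array and bright enough to test, and 0 were called. At an unadjusted p under 0.05 (limma), 0 of 17 passed in Fr1 minus Fr3, against 8.16% of all genes. In Fr1 minus Fr2, 1 of 17 was higher, against 3.35%, and in Fr2 minus Fr3, 1 of 17 was higher, against 4.84%. The medians of the 3 comparisons were 0.32, 0.35 and −0.39 in that order. Traf1, an adaptor of TNF receptors, had levels of 2.86 and 3.74 in Fr1, 1.72 and 1.67 in Fr2, and 1.68 and 2.82 in Fr3. Traf3, which restrains the noncanonical NF-kB pathway, had levels of 3.26 and 3.05 in Fr1, 3.39 and 3.43 in Fr2, and 2.07 and 2.06 in Fr3. The Fr3 arrays were the lowest for Traf3, with an adjusted p of 0.530 for Fr2 minus Fr3, and another probe of Traf3 had the opposite sign in Fr1 minus Fr3. Tnfaip3, the inhibitor A20, had levels of 5.49 and 4.98 in Fr1, 5.41 and 4.69 in Fr2, and 3.88 and 4.22 in Fr3. Nfkb1 had levels of −0.59 and 0.91 in Fr1, −0.81 and 0.07 in Fr2, and 0.69 and 1.69 in Fr3.

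Genes of the interferon gamma route, which induces PD-L1 in many cells, were tested for 10 of 11, and 0 were called. At an unadjusted p under 0.05 (limma), 1 of 10 was higher in Fr1 minus Fr3, against 2.8% of all genes. In Fr1 minus Fr2, 1 of 10 was higher, against 3.35%, and in Fr2 minus Fr3, 0 of 10 passed, against 8.91%. The medians of the 3 comparisons were 0.04, −0.23 and 0.07 in that order. Irf8, a transcription factor of dendritic cell development, had levels of 1.67 and 0.88 in Fr1, 0.10 and −0.94 in Fr2, and −0.55 and −0.35 in Fr3. Its Fr1 arrays stood above the others, with Fr1 minus Fr3 at 1.73 (adjusted p = 0.537). Cmtm6, a membrane protein that stabilises PD-L1, had levels of 3.57 and 3.45 in Fr1, 4.71 and 4.53 in Fr2, and 4.46 and 4.10 in Fr3. Ifngr1 had levels of 2.93 and 1.94 in Fr1, 3.45 and 3.46 in Fr2, and 2.54 and 2.80 in Fr3. Jak1, the kinase of that receptor, had levels of 2.54 and 1.85 in Fr1, 3.04 and 3.60 in Fr2, and 2.99 and 3.44 in Fr3. The Fr1 arrays were the lowest for Cmtm6 and for Jak1.

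Among genes of CD86 turnover and dendritic cell maturation, 10 of 11 were bright enough to test and 0 were called. At an unadjusted p under 0.05 (limma), 2 of 10 were higher and 1 lower in Fr1 minus Fr3, against 2.8% and 5.36% of all genes. In Fr1 minus Fr2, 1 was higher and 1 lower, against 3.35% and 6.42%. In Fr2 minus Fr3, 2 were higher, against 4.84%. The medians of the 3 comparisons were 0.08, 0.08 and −0.05 in that order. Il12b, the p40 subunit of interleukin-12, had levels of 1.097 and 1.03 in Fr1 and −1.78 and −0.46 in Fr2, while neither Fr3 array was well above background. Fr1 was at least 10.01-fold and Fr2 at least 2.20-fold above Fr3 (adjusted p = 0.145 and 0.393). Ccr7, the receptor for migration to lymph nodes, had levels of 0.98 and 0.83 in Fr1, −0.14 and 0.37 in Fr2, and −0.72 and −1.29 in Fr3. For Il12b and Ccr7 the arrays ran Fr1 above Fr2 above Fr3 without overlap, but the other kept probe of Ccr7 had the opposite sign in Fr2 minus Fr3. Marchf8, a ubiquitin ligase that acts on CD86, had levels of 1.18 and 0.88 in Fr1, 2.96 and 1.47 in Fr2, and 3.13 and 2.81 in Fr3. Cd200r1, an inhibitory receptor of myeloid cells, was kept through its Fr2 arrays alone. Its levels there were −1.47 and −1.61, while no Fr1 or Fr3 array was well above background. The filter thus favoured a reading highest in Fr2. Cd200r1 was the gene counted lower in Fr1 minus Fr2 and 1 of the 2 counted higher in Fr2 minus Fr3.

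The genes whose levels ran most like those of a gene of the set, where that gene was above background on all 6 arrays, were named by Pearson's r, as a description, since all genes share the same arrays and their depth. Icosl ran with Gtf2e2 (r = 0.996) and Ptger4 (r = 0.992), and 16 of 6800 genes compared had r over 0.95 with it. Cd86 ran with Kmo (r = 0.990) and Pmm2 (r = 0.983), and Cd80 with Tti2 (r = 0.981) and Atp11b (r = 0.969). Cd274 ran with Th (r = 0.976) and with Tnfsf14 (r = 0.975), the gene of the TNF family ligand LIGHT. Tnfsf14 had levels of 0.03 and −0.84 in Fr1, 0.25 and 3.55 in Fr2, and −0.21 and 0.82 in Fr3, so the second Fr2 array was high for it as for Cd274. Tnfsf9 ran with Aph1a (r = 0.980) and Pak1ip1 (r = 0.978), and Lgals9 with Pafah1b2 (r = 0.974) and Yipf1 (r = 0.973).

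Havcr2 and Cd40 were not above background on all 6 arrays and fell outside that rule. With that rule dropped for them and for the genes compared, Havcr2 ran with Rgs1 and Gpr141, both at r = 0.990. These were among 23 of 2775 genes with r over 0.95. Rgs1, a regulator of G protein signalling, had levels of 7.32 and 7.24 in Fr1, 7.16 and 6.91 in Fr2, and 3.63 and 4.74 in Fr3. Gpr141, an orphan receptor, had levels of −0.16 and −0.10 in Fr1, −0.14 and −0.21 in Fr2, and −4.53 and −3.89 in Fr3. Those Fr3 values lay below −2.57 and −1.95, the lowest levels well above background on the same arrays. Both genes were low on the Fr3 arrays and close to level between Fr1 and Fr2. Cd40 ran with Npc1 (r = 0.991) and Tfcp2 (r = 0.989).

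The gap between replicate arrays depended on the base composition of the probe. In Fr3 the median of replicate 2 minus replicate 1 was 0.72 for probes with up to 10 T bases and −1.68 for probes with 25 or more. In Fr1 it was 0.44 and −0.96 for the same probes, and in Fr2 it was 0.20 and 0.03. The Havcr2 probe, with 13 T, had a gap of 1.13 in Fr3, and the median of probes with as many T was 0.63. The main Cd80 probe, with 10 T, had a gap of 3.16, outside the 5% to 95% range of −1.13 to 2.22 of probes with as many T. The Cd274 probe, with 24 T, had a gap of 0.81 in Fr3 where the median was −0.65. In absolute size the median gap of the 8 genes was 0.39 in Fr1, 0.97 in Fr2 and 0.61 in Fr3, against 0.71, 0.59 and 0.83 for all genes in that order. The part of base composition in the levels of these genes was not tested.

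**Figure D5:**
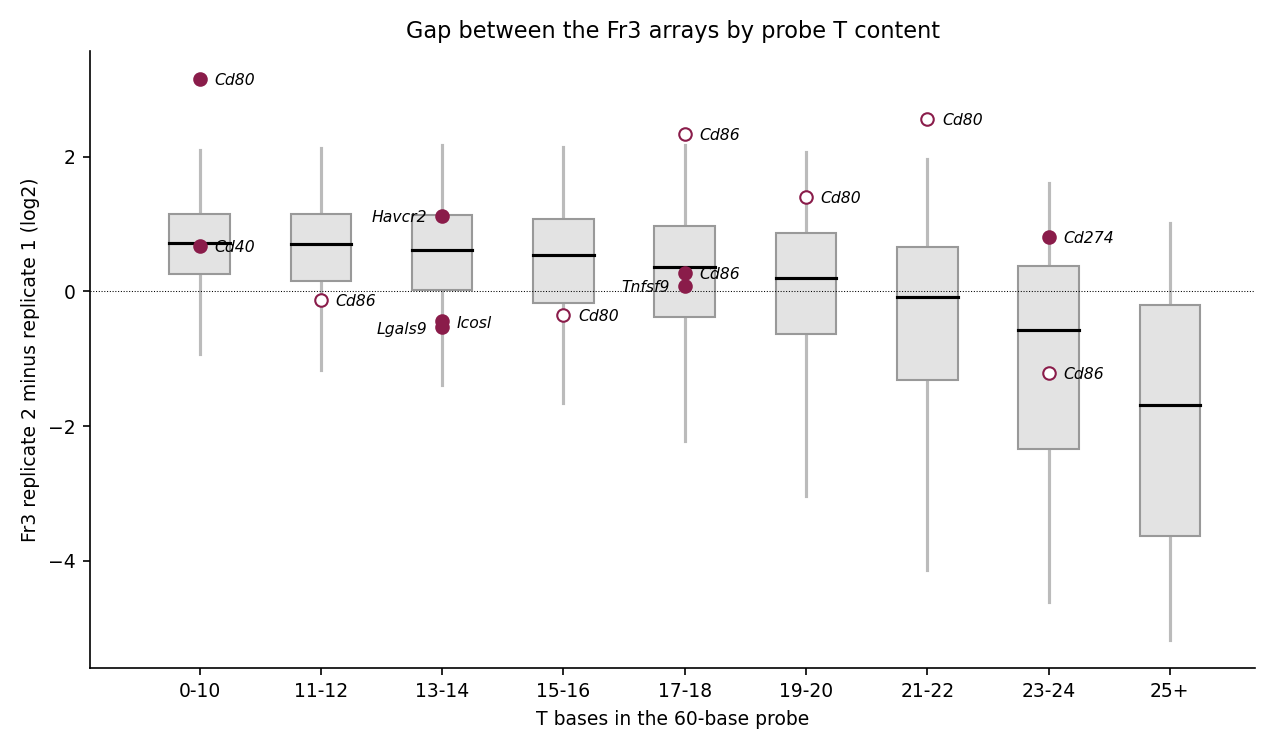
Difference between the Fr3 arrays (replicate 2 minus replicate 1, log2) by the number of T bases in the probe, where boxes span the middle 50% of all kept probes, grey lines the 5% to 95% range and black lines the median. Points are probes of the 10 genes that were kept, filled where the probe represents its gene; the main Cd80 probe stands at 3.16 while the median falls to −1.68 at 25 or more T.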

How the data were processed

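Total RNA from each sort was amplified with a whole-transcriptome system and labelled with Cy3, per the labels' protocols. Per the file headers, Agilent Feature Extraction 11.5.1.1 gave the intensity of each of 62976 spots on 1-colour arrays, as background-subtracted and detrended signals. A second table deposited by the authors, in log2, correlated with the scanner values at r of at least 0.9999; it served as an alternative. Spots of a probe were averaged and 4 probes with outlier flags left out. Probes had to be well above background on the 2 arrays of 1 fraction or more, which kept 27867, and a gene was its brightest kept probe. Fractions were compared in R 4.3.3 with limma 3.58.1 (3 group means over 6 arrays, moderated t and F, two-sided, Benjamini-Hochberg over 20817 genes), tested on simulated data; files were read with Python 3.11.15. A fold against a fraction below background is a bound, set at the lowest signal well above background on each array. Symbols were brought up to date with RefSeq (32994 probes by accession, 10224 by symbol, 520 by synonym, 12867 unmatched). All 10 genes of the set, the sort markers, up to 4 genes of each pathway list with the smallest F-test p and the 2 genes most like each of them that was above background on all 6 arrays are named. The 10 genes and the lists were chosen with earlier results of these data known. Alternatives covered normalization, background correction, filters, probe choice, T content, weights, the replicate block and leaving out arrays. With 2 arrays a fraction, the number of arrays limits the precision.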

Additional observations from a re-analysis of the deposited data

How the results depend on the processing

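Over 24 differences of the 8 genes, 310 of 327 alternative values kept direction and side of the threshold, 14 reversed and 3 gained a call. With all arrays in the fit, 2 of 231 reversed: Tnfsf9 in Fr1 minus Fr2, at 0.040 by quantile normalization and 0.036 by normexp. Leaving out single arrays gave −0.62 to 2.54 for Cd80 in Fr1 minus Fr3, −1.30 to 1.54 for Icosl in Fr1 minus Fr2 and −1.03 to 1.80 in Fr2 minus Fr3. It gave −0.63 to 1.80 for Cd274 in Fr2 minus Fr3, −0.47 to 0.063 for Lgals9 in Fr1 minus Fr3 and −0.56 to 0.56 for Havcr2 in Fr1 minus Fr2. Tnfsf9 spanned −0.38 to 0.44 in Fr1 minus Fr3, −0.53 to 0.30 in Fr1 minus Fr2 and −0.27 to 0.56 in Fr2 minus Fr3. Havcr2 was called in Fr2 minus Fr3 with probes over 30% T left out (adjusted p = 0.0345), where fewer genes were tested, and its adjusted p over all alternatives ran 0.0214 to 0.603 in Fr1 minus Fr3 and 0.0295 to 0.688 in Fr2 minus Fr3. Calls in Fr1 minus Fr3 were 0 under normexp, no filter, every probe, array weights, the 4 arrays alone and the replicate block, 12 without probes over 30% T, and 0 to 1395 on leaving out an array. In Fr1 minus Fr2 they were 7 without such probes, 3 with the 4 arrays alone and 0 to 3 on leaving out an array. In Fr2 minus Fr3 they were 2 under normexp, 14 with probes required above background on all 6, 56 without probes over 30% T, 0 with the 4 arrays alone or the replicate block, and 0 to 933. The F-test gave 0 under quantile, normexp, no filter, every probe, weights and the replicate block, 3 with probes above background on all 6 arrays, 48 without probes over 30% T, and 0 to 1069. The high counts came without Fr3 replicate 1, and the cause was not tested. Of the 8 genes, the calls held 1 (Havcr2) in Fr2 minus Fr3 and the F-test without probes over 30% T, and 0 to 1 on leaving out an array in each of Fr1 minus Fr3, Fr2 minus Fr3 and the F-test. Normexp, which here adds an offset of 50, gave smaller differences for several genes, such as −0.63 for Cd274 and −0.50 for Lgals9 in Fr1 minus Fr2. Replicate numbers were not taken as pairs: same-numbered arrays had a correlation of deviations of 0.433 between Fr1 and Fr3, which share a slide, but 0.118 between Fr1 and Fr2 and 0.0458 between Fr2 and Fr3, and the labels do not say whether a number marks a shared experiment. With the replicate block, Havcr2 had an adjusted p of 0.243 in Fr1 minus Fr3. Dim probes limit the reading of Cd40, Pdcd1lg2 and Tnfsf4.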
